A study of Mus musculus with 3 samples.

Results

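The genes described here build cholesterol and fatty acids or control that synthesis, read on arrays from dendritic cells that had been grown in culture from mouse bone marrow and that take up and present antigen. The list names 31 genes, and a gene was included through every probe set of the array whose only platform gene symbol was that gene. This gave 69 probe sets of 30 genes out of 18193 genes in all, and expression of Acat2 was not analysed here. Marrow of 6-week-old female mice was grown with GM-CSF at 20 ng/mL, and the cells that had come off the clusters were taken on day 7. They were then kept for 24 h with PBS (the control), with LPS at 1 µg/mL or with PTX at 100 ng/mL. LPS, the lipopolysaccharide of the bacterial outer membrane, acts through Toll-like receptor 4, and the labels do not spell out PTX. All groups thus shared the GM-CSF culture, and the labels name no genetic change. The strain label is C57BL/6 for PBS and LPS and C57BL/7 for PTX. Each group was 1 array, and the labels do not say whether the cultures came from 1 mouse or from pooled marrow. With 1 array the spread among replicates is unknown, so no difference has a replicate check or a test, and differences are given by size alone.

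As background, cholesterol is made from acetyl-CoA through mevalonate, farnesyl pyrophosphate and squalene, and fatty acids from acetyl-CoA through malonyl-CoA, with elongases and desaturases acting on the products. Both routes are under SREBP transcription factors, which sit in the endoplasmic reticulum membrane with the escort protein Scap and are held there by Insig proteins while sterol is plentiful. When sterol is low, SREBP is carried to the Golgi, cleaved, and binds sterol regulatory elements in the promoters of these genes, often beside NF-Y and Sp1 sites. In myeloid cells, interferon and Toll-like receptor ligands are known to alter this programme.

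The values are the deposited intensities on a linear scale, 1 per probe set and array. A difference is on the log2(intensity + 16) scale, where dim probe sets show smaller differences than their ratios. A gene was read by its probe set of highest mean log2 value, and the gene was taken as measured if this set had an intensity of at least 78.9, the median of all values, on at least 1 array. By this measure 12299 genes were measured, among them all 30 genes of the list that had a probe set. Levels of different probe sets are not compared with each other, since an intensity depends on the probe.

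The 3 arrays differed in their distribution of intensities, with LPS apart from the other 2. Their median intensities were 85.7 (PBS), 65.3 (LPS) and 86.9 (PTX). For 18S ribosomal RNA, the 3′ probe set divided by the 5′ one gave 0.26 (PBS), 1.95 (LPS) and 0.20 (PTX). Every value involving LPS rests on that array, and the part of these features in the LPS differences was not tested. Of 9 dendritic cell markers, 8 reached the measured level on the PBS array, where Flt3 did not (62.1), and all 9 did so on the LPS and PTX arrays. They did not move one way: Cd74, the invariant chain of MHC class II, read 6291 (PBS), 10839 (LPS) and 7057 (PTX), while the integrin gene Itgax read 2383, 1691 and 1294. In PTX against PBS 7 of the 9 lay above 0, with Itgax and Zbtb46 below. None of 4 B cell markers was measured by its representing probe set on any array, though Pax5 had 1 other measured probe set. Of 5 T cell markers 3 were measured, and the 5 summed to 456 (PBS), 387 (LPS) and 511 (PTX). Of 5 stromal cell markers 2 were measured, with sums of 297 (PBS), 641 (LPS) and 319 (PTX). Among these, Dcn read 40.8 (PBS), 373 (LPS) and 52.5 (PTX). The summed intensities of 8 macrophage and monocyte markers were 25102, 39700 and 37370 in the same order, and those of 7 markers of dividing cells were 10355, 5054 and 4351. Bright probe sets weigh most in a sum, such as that of Pcna (4485, 4149 and 3020) among the dividing cell markers. Gene by gene, 5 of these 7 read higher with PTX than with LPS and 2 lower, with a median log2 difference of 0.65. Of the 8 markers of macrophages and monocytes, 5 read higher with PTX than with LPS and 3 lower (median 0.72). Adipocyte markers, of which 3 of 5 were measured, summed to 459, 290 and 440, and Adipoq (31.3, 32.6 and 37.7) lay under the measured level throughout. In RNA of a whole culture, fewer cells of a type and less RNA per cell cannot be told apart.

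Promoters of the genes were searched for the letters TCACNCCA (the core of a sterol regulatory element), CCAAT (the NF-Y box) and GGGCGG (the Sp1 box) on both strands. The windows of RefSeq (GRCm38.p6) hold 250 bases before to 50 after each annotated start, and 24 of the 31 genes, Acat2 among them, had one, with 30 windows between them. Fdps, Fdft1, Sqle, Stard4, Scd1, Scd2 and Fads1 had no entry in the table. TCACNCCA was found in 3 of the 24 genes (12.5%), against 4.76% of 9956 measured genes with a window and 4.97% of all 27025 genes in the table. CCAAT was found in 19 of 24 (79.2%), against 42.3% of the measured and 41.1% of all genes. GGGCGG was found in 20 of 24 (83.3%), against 65.9% and 38.2%. The 3 genes with TCACNCCA were Hmgcs1, Msmo1 and Srebf2, whose stretches of 190 bases before the start are shown because they hold both the sterol element and the NF-Y box. They lie at chr13:119690161-119690350 on the plus strand, chr8:64733579-64733768 on the minus strand and chr15:82147079-82147268 on the plus strand. Each is written in the direction of the gene, and capitals mark matches of TCACNCCA and of CCAAT or its reverse complement:
Hmgcs1: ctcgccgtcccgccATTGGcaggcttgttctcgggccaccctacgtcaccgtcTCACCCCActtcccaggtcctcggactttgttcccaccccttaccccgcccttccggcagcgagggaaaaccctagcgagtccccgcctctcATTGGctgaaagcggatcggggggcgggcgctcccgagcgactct
Msmo1: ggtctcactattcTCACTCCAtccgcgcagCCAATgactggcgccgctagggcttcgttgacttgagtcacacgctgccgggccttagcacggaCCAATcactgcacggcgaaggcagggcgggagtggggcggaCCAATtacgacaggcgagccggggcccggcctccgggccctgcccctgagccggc
Srebf2: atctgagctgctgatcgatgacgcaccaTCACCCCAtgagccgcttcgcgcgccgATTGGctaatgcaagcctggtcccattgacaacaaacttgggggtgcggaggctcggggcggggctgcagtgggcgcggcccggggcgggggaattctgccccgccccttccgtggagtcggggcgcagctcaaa
The sterol element match starts at base -137 of Hmgcs1, -177 of Msmo1 and -162 of Srebf2, counted from the start site. A match describes the letters only. Elovl6 and Acaca held none of the 3 motifs in this window, while Fasn and Hsd17b7 each held 3 CCAAT matches. None of the 3 genes was at least 2-fold apart from PBS after either stimulus in the probe set that represents it.

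**Figure D1:**
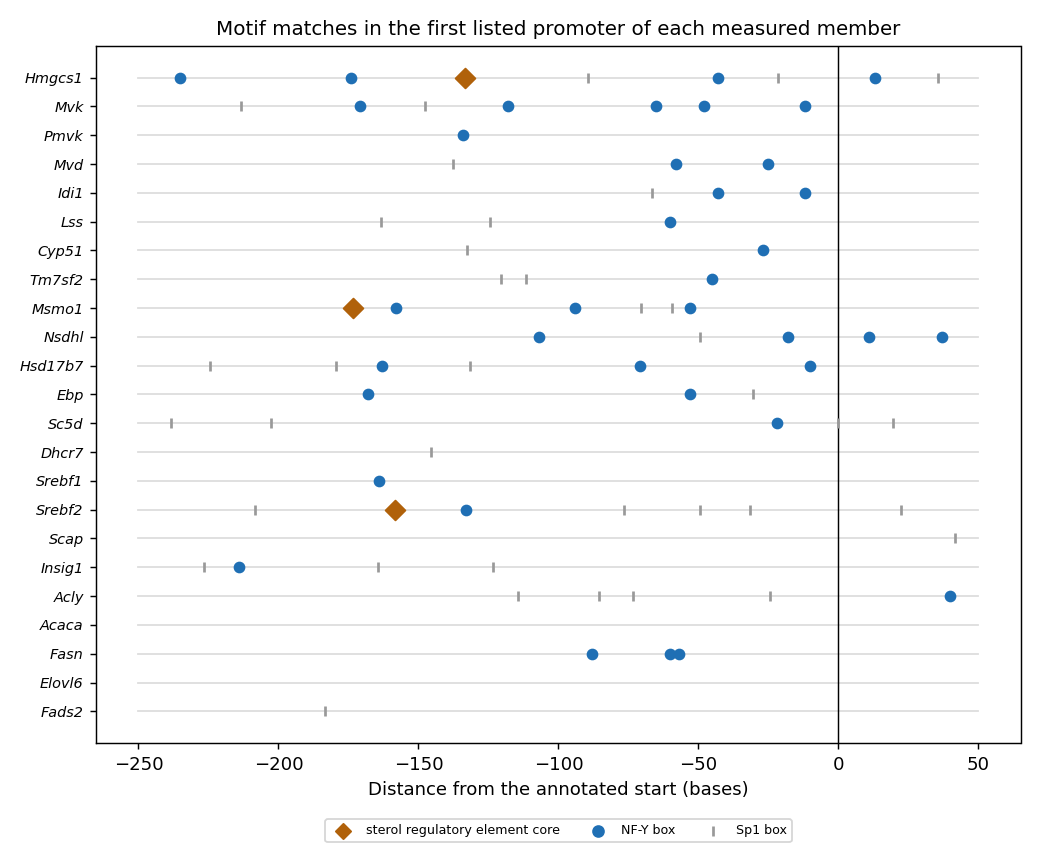
Matches of the sterol regulatory element core (diamonds), the NF-Y box (circles) and the Sp1 box (bars) in the first listed window of each measured gene with one, by distance from the annotated start in bases. The sterol element core appears in Hmgcs1, Msmo1 and Srebf2, while most genes of sterol synthesis have at least 1 NF-Y box.

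Cells kept with PTX read lower than cells kept with PBS across much of the sterol pathway and at several steps of fatty acid synthesis. Of the 30 genes 8 were at least 2-fold lower, against 2.37% of all measured genes, and none was at least 2-fold higher, against 3.04%. The 8 were Idi1, Fdps, Sqle, Cyp51, Hsd17b7, Fasn, Elovl6 and Scd2. In all, 25 of 30 genes (83.3%) lay below 0, as did 49.3% of all measured genes. The median log2 difference was -0.51, against 0.0054 over all measured genes, and 20 of 30 genes lay below the lower quartile of all measured genes (-0.19). The PTX array held the lowest of the 3 readings for 19 of 30 genes and the PBS array the highest for 18, while these arrays did so for 27.5% and 30.8% of all measured genes. Of the 8 genes 4 (Fdps, Sqle, Cyp51 and Hsd17b7) stayed at least 2-fold lower under each of 10 other settings. With a pseudocount of 64 the count was 5, without Idi1, Fasn and Elovl6, against 1.70% of all measured genes.

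**Figure D2:**
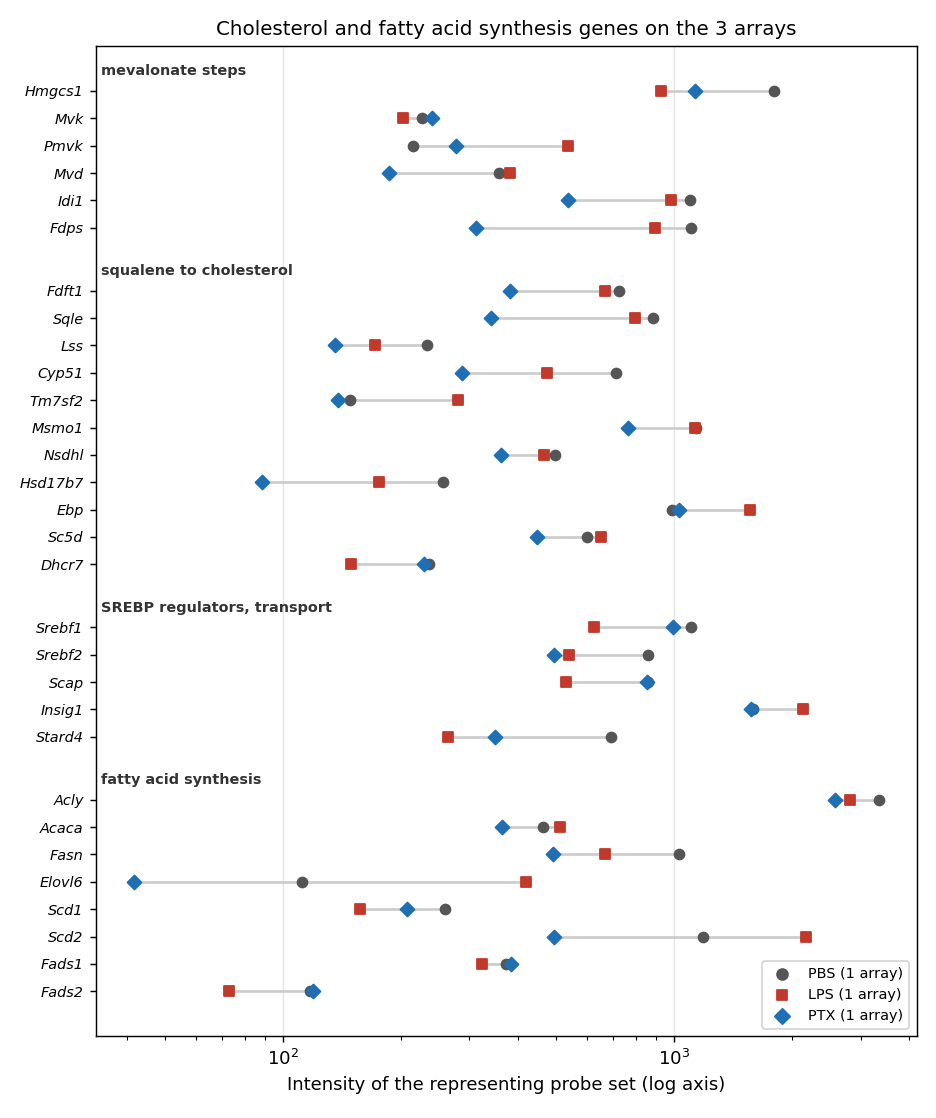
Intensity of the representing probe set of each gene on the PBS (circle), LPS (square) and PTX (diamond) arrays, on a log axis, 1 array per group, grouped by step of the pathway. The PTX reading is the lowest of the 3 for 19 of 30 genes, whereas LPS lies apart on the high side for Pmvk, Elovl6 and Scd2. The other measured probe set of Elovl6, not drawn here, reads lower with LPS (37.6) than with PBS (102).

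In the mevalonate part, which makes the isoprenoid units, Fdps had the largest difference of PTX from PBS among the representing probe sets of the list. It encodes farnesyl pyrophosphate synthase, the branch point to sterols and protein prenylation, and read 1107 (PBS), 896 (LPS) and 311 (PTX). PTX stood apart from both other arrays, with a log2 difference of -1.78 from PBS, rank 84 from the lowest of 12299 genes. The other 7 genes past 2-fold ranked between 160 and 284. Idi1, the isomerase that supplies the building block for Fdps, read 1099, 984 and 536, a difference of -1.01, just past 2-fold. Its other probe set (528, 287 and 272) gave -0.92, for an average of -0.97, and there LPS read nearly as low as PTX. Mvd, which decarboxylates mevalonate diphosphate, read 357, 380 and 187 (-0.88), with -0.73 in its other probe set. Hmgcs1, the HMG-CoA synthase at the head of the pathway and one of the promoters printed above, read 1800, 927 and 1130. Both stimulated arrays lay below PBS there, with -0.66 for PTX. Its other 3 bright probe sets gave -0.74 to -0.82 and a dim one (67.2, 55.5 and 93.2) gave 0.39. The kinases between these steps did not share the pattern, with Mvk at 0.08 and Pmvk at 0.35.

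From squalene to cholesterol, 3 of 11 enzymes were at least 2-fold lower after PTX and 10 of 11 lay below 0. Sqle, the squalene epoxidase and a rate-limiting enzyme of the route, read 882 (PBS), 795 (LPS) and 340 (PTX). LPS was close to PBS and PTX well under both, at -1.34. Cyp51, which demethylates lanosterol, read 710, 473 and 286, in descending order from PBS to LPS to PTX. It differed by -1.26, and by -1.32 in its other measured probe set (214, 117 and 76.0). Hsd17b7, a sterol ketone reductase, read 256, 176 and 88.6 (-1.38). Its other measured probe sets differed by -1.24 (315, 65.9 and 124) and -0.92 (137, 116 and 64.9), so all 3 were lower after PTX. Fdft1, the squalene synthase, read 725, 665 and 380 (-0.90, and -0.81 in its other measured probe set). Lss, which closes the ring to lanosterol, read 233, 173 and 136 (-0.72). Its dimmer measured probe set (79.6, 34.3 and 62.4) gave -0.29, with LPS the lowest.

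The remaining sterol enzymes differed by less than 2-fold after PTX. Msmo1 and Nsdhl, which act with Hsd17b7 in removing methyl groups from the sterol ring, read 1139, 1129 and 761 (-0.57) and 497, 464 and 360 (-0.45). Sc5d, a sterol desaturase, was at -0.41 (600, 649 and 446). Tm7sf2, a sterol reductase (-0.09), Dhcr7, which reduces the last double bond on one branch (-0.04), and Ebp, a sterol isomerase (0.06), lay close to PBS. Differences past 2-fold among the sterol enzymes thus lay at Idi1, Fdps, Sqle, Cyp51 and Hsd17b7.

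Among the regulators, mRNA of the SREBP machinery was mostly near PBS after PTX. Srebf2, the SREBP gene tied to sterol synthesis, read 861 (PBS), 538 (LPS) and 494 (PTX), a difference of -0.78, and its dimmer probe set (158, 425 and 132) gave -0.23. Srebf1, the SREBP gene tied to fatty acid synthesis, differed by -0.15 (1108, 624 and 994), Scap by -0.01 (860, 531 and 851) and Insig1 by -0.01 (1591, 2140 and 1578). Stard4, a carrier of sterol between membranes, read 692, 264 and 349 and fell just short of 2-fold at -0.95. Both of its other probe sets passed it, at -1.03 (452, 273 and 213) and -1.25 (240, 162 and 91.3).

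In fatty acid synthesis 3 of 8 genes were at least 2-fold lower after PTX, with a median of -0.35. Fasn, the fatty acid synthase, read 1030 (PBS), 665 (LPS) and 491 (PTX), a difference of -1.04. Elovl6, which elongates palmitate, read 112, 418 and 41.6 (-1.15), with the PTX reading under the measured level, and its other measured probe set gave -1.73 (102, 37.6 and 19.6). Scd2, a stearoyl-CoA desaturase, read 1187, 2171 and 494 (-1.24), and its dimmer measured probe set (120, 360 and 69.0) gave -0.68. Averaged over both probe sets, Scd2 was at -0.96, short of 2-fold. Its neighbour and close relative Scd1 read 259, 158 and 208 (-0.30), and its other probe set (112, 51.8 and 120) gave 0.09. Whether probes of one desaturase also bind the other was not tested. The enzymes that supply the substrate lay nearer PBS, with Acly (ATP citrate lyase) at -0.37 (3349, 2824 and 2587) and Acaca (acetyl-CoA carboxylase) at -0.34 (463, 510 and 364). All 5 measured probe sets of Acly lay between -0.58 and -0.22. The desaturases of polyunsaturated fatty acids, Fads1 and Fads2, were at 0.04 and 0.02, with Fads2 at -0.68 in a probe set that was dim on both arrays (50.9 and 25.6).

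**Figure D3:**
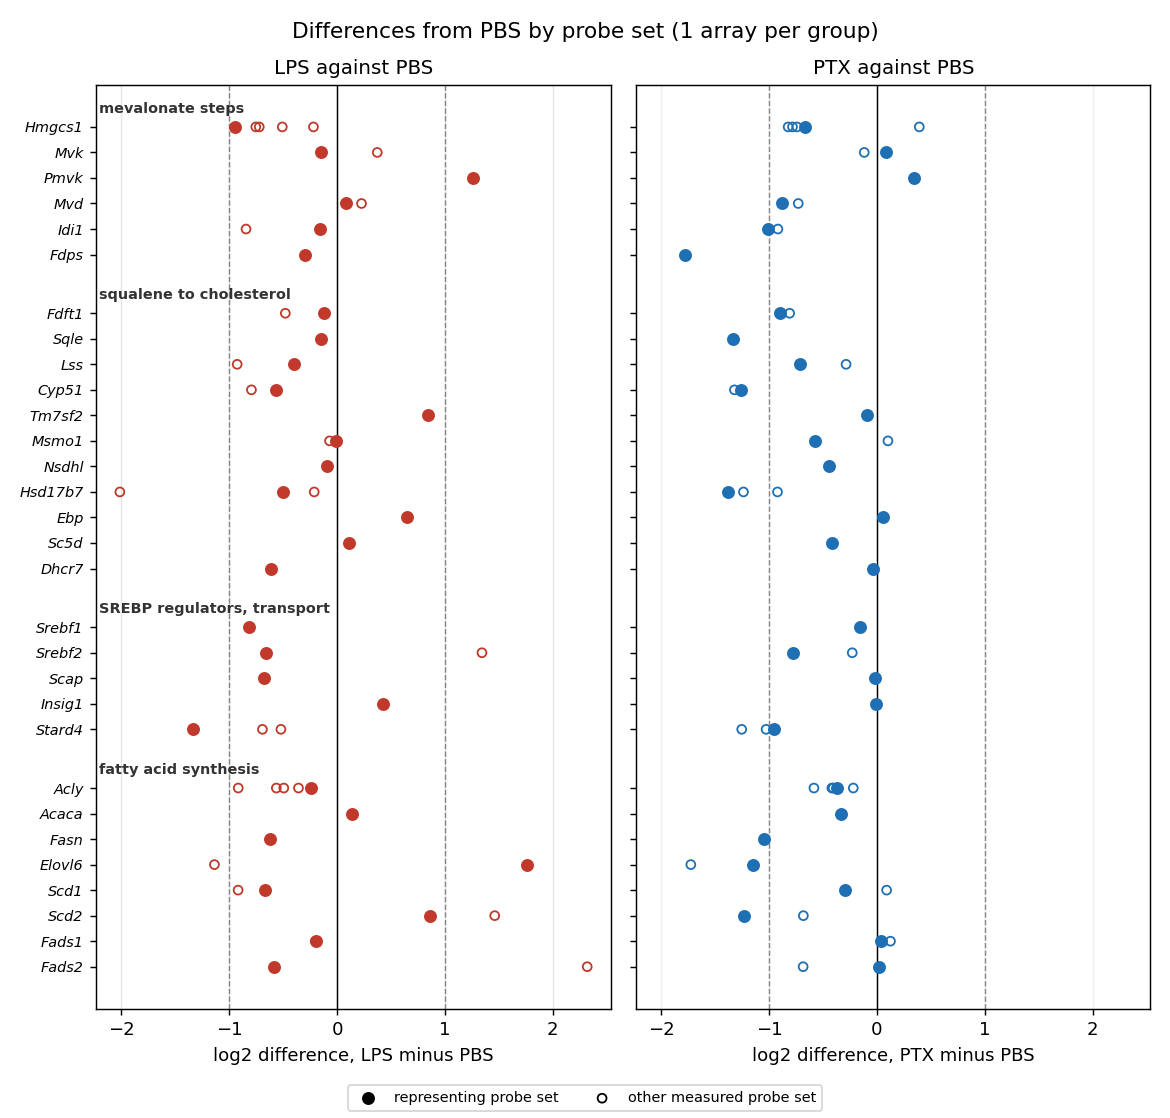
Log2 difference from PBS of every measured probe set, after LPS (left) and PTX (right), with filled points for the probe set that represents the gene, open points for its other probe sets and dashed lines at 2-fold. After PTX most points lie left of 0. Of 17 genes with several measured probe sets, 5 have them on both sides of 0 after PTX and 4 after LPS. Those after LPS are Mvk, Srebf2, Elovl6 and Fads2, of which Mvk and Fads2 are split after PTX too.

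Several probe sets of a gene read the same RNA, so they check the measurement and are not replicates of a condition. Of 17 genes with at least 2 measured probe sets, 11 had all of them below 0 in PTX against PBS, 1 (Fads1) had all above 0, and 5 were split. The 5 were Hmgcs1, Mvk, Msmo1, Scd1 and Fads2, and a dim probe set stood alone against the others in Hmgcs1 and Msmo1. Markers of dividing cells were lower on the PTX array too, 6 of 7 by at least 2-fold (median -2.05), and 2 of 8 macrophage and monocyte markers were at least 2-fold higher (median 0.82). All 5 measured neutrophil markers lay below 0 (median -0.69), S100a9 by the most (-1.82), and their summed intensities with 2 unmeasured ones were 10443 (PBS), 11908 (LPS) and 5441 (PTX). After LPS, 6 of 7 dividing cell markers were at least 2-fold lower as well (median -3.06). The part of these marker differences in the readings of the sterol and fatty acid genes was not tested.

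LPS against PBS gave a mixed picture. The medians were -0.15 for the mevalonate steps, -0.12 for the steps from squalene to cholesterol and -0.22 for fatty acid synthesis. The regulators and the sterol carrier gene lay lower by their representing probe sets, with a median of -0.68. This comparison uses the same PBS array as that of PTX against PBS, so the 2 are not independent. Of the 30 genes 2 were at least 2-fold higher (Pmvk and Elovl6), against 6.50% of all measured genes, and 1 was at least 2-fold lower (Stard4), against 13.0%. Both shares are near or under those of all measured genes. The median was -0.18, against -0.08 over all measured genes, and 21 of 30 genes lay below 0, as did 56.0% of all. The sign of that median depended on the scaling. Centring the arrays on their medians moved the median of all measured genes to 0.27 and that of the list to 0.15. Tm7sf2 and Scd2 then joined the 2 higher genes, while the share of higher genes among all measured genes rose to 11.6%. Relative to all measured genes, the list lay between -0.24 and -0.04 over the settings tried.

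Pmvk, the kinase before Mvd, had a single probe set and read 215 (PBS), 537 (LPS) and 277 (PTX). LPS alone was high, at 1.26 from PBS. Tm7sf2 read 149, 280 and 139 (0.84) and Ebp 991, 1562 and 1031 (0.65), in both cases with LPS above 2 similar readings. Scd2 was higher after LPS in both measured probe sets (0.86 and 1.46), whereas Scd1 was lower in both (-0.66 and -0.92). Stard4 was the gene past 2-fold on the low side (-1.34), and its other probe sets gave -0.69 and -0.52, so the size differed between probe sets, and their average was -0.85. Hmgcs1 lay at -0.95 with its 4 other probe sets between -0.75 and -0.22. Fdps (-0.30) and Sqle (-0.15), which were low after PTX, were near PBS after LPS, and Cyp51 was between (-0.57). The probe sets of Idi1 differed in size after LPS, at -0.16 and -0.84. Srebf1 (-0.81), Scap (-0.68) and Fasn (-0.62) read lower after LPS by less than 2-fold.

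Probe sets of one gene went opposite ways after LPS in 4 of the 17 genes with several. For Elovl6 they differed by 1.76 (112 to 418) and by -1.14 (102 to 37.6), both past 2-fold. For Srebf2 they differed by -0.66 (861 to 538) and 1.34 (158 to 425). For Fads2 the representing probe set was at -0.59 (118 to 73.0) and another at 2.32 (50.9 to 318). Mvk was the fourth, at -0.15 and 0.37. No direction after LPS is therefore given for Elovl6, Srebf2 or Fads2 as genes, and the count of higher genes holds Elovl6 through 1 probe set; averaged, its probe sets were at 0.31. Hsd17b7 kept its direction and not its size, at -0.50, -0.21 and -2.01 in its measured probe sets.

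PTX against LPS sets the treatments side by side, without PBS, on the LPS array with the high 18S ratio. Of the 30 genes 4 were at least 2-fold lower with PTX than with LPS, against 6.24% of all measured genes, and none was higher, against 13.7%. The 4 were Fdps (-1.48), Sqle (-1.19), Elovl6 (-2.91) and Scd2 (-2.10), which stayed past 2-fold under each of 9 other settings. The median of the list was -0.45 against 0.09 over all measured genes. Scd2 had the same size in both measured probe sets (-2.10 and -2.15), but Elovl6 did not (-2.91 and -0.59). With median centring 11 genes were lower, adding Pmvk, Mvd, Idi1, Fdft1, Cyp51, Tm7sf2 and Hsd17b7. The share of all measured genes at least 2-fold lower then rose too, from 6.24% to 12.6%, and that of higher ones fell from 13.7% to 8.57%. Among all genes past 2-fold, the share of higher ones went from 68.7% to 40.5%. The largest positive differences among representing probe sets were those of Scap (0.67), Srebf1 (0.66) and Fads2 (0.61), but the other measured probe set of Fads2 was at -3.01 and the average at -1.20.

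**Figure D4:**
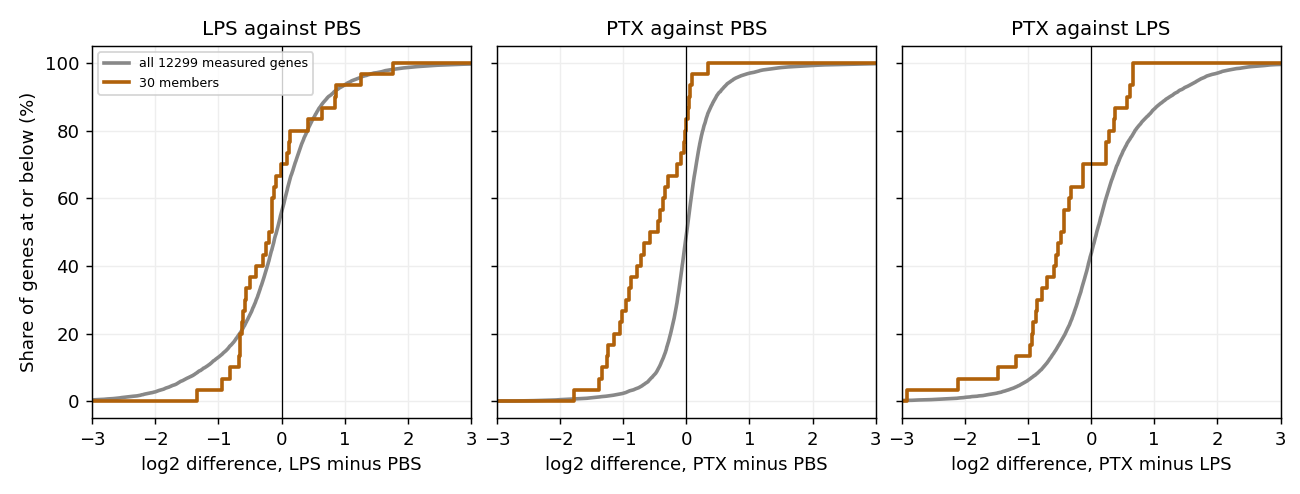
Share of genes (%) at or below each log2 difference in the 3 comparisons, for the 30 genes of the list (steps) and all 12299 measured genes (curve). The steps lie left of the curve in both comparisons with PTX and follow it more closely in LPS against PBS, where the medians are -0.18 and -0.08.

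**Figure D5:**
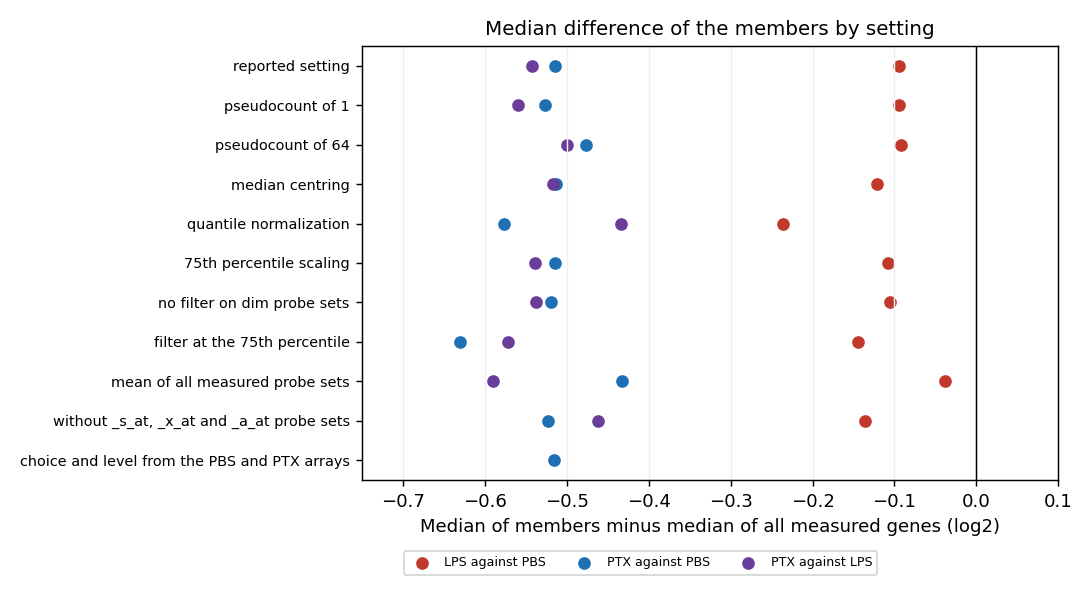
Median log2 difference of the listed genes minus that of all measured genes, under the reported and each other setting, for the 3 comparisons. The points for PTX against PBS lie between -0.63 and -0.43 and those for LPS against PBS between -0.24 and -0.04.

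Other genes of the sterol route did not share the PTX pattern as a list. The list was written from textbook knowledge, with earlier results of these data known. Of 26 named genes 17 were measured, and their median in PTX against PBS was -0.01. By at least 2-fold, 1 was higher and 1 lower (5.88% each, against 3.04% and 2.37% of all measured genes). Lrp8, a lipoprotein receptor, was the lower one, at 153 (PBS), 168 (LPS) and 57.9 (PTX), a difference of -1.20. Stard3, which moves cholesterol at late endosomes, was the higher one, at 542, 854 and 1211 (1.14). Insig2 (0.18) and the proteases that cleave SREBP, Mbtps1 (-0.03) and Mbtps2 (0.36), were within 2-fold. After LPS 1 of 17 was higher, Npc2, which hands cholesterol out of the lysosome (6643, 14051 and 10865, 1.08), and none was lower. Of all measured genes 6.50% were higher and 13.0% lower. Dhdds, the enzyme that makes dolichol from farnesyl pyrophosphate, read 328, 578 and 254 and was lower with PTX than with LPS (-1.13), as was Lrp8 (-1.31). Genes of this list and the next are given by their representing probe set alone. Other measured probe sets, 3 for Npc2, 2 for Dhdds and 1 for Lrp8, were not compared.

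Other genes of fatty acid and glyceride synthesis, 29 measured of 36 named, had medians of -0.10 in PTX against PBS and 0.30 in LPS against PBS. After PTX 2 were at least 2-fold higher (6.90%, against 3.04% of all measured genes) and none lower (against 2.37%). Those higher were the lipid carrier gene Fabp4 (900, 1488 and 2749, 1.59) and Hacd4, named as a dehydratase of elongation (1334, 444 and 2863, 1.09). Acss2, which makes acetyl-CoA from acetate (-0.91), the acyl-CoA synthetase gene Acsl3 (-0.99) and Aacs, an acetoacetyl-CoA synthetase (-0.74), were lower by less than 2-fold. After LPS 3 were higher and 3 lower (10.3% each, against 6.50% and 13.0% of all measured genes). Dgat2, which makes triglyceride, read 215 (PBS), 2366 (LPS) and 371 (PTX), so that LPS alone was high (3.36). Acsl5, an acyl-CoA synthetase gene, was at 1.40 (1717, 4553 and 2054) and Tecr, the last reductase of the elongation cycle, at 1.03. The lower genes were Elovl7, an elongase gene (-2.40, 264, 37.0 and 236), Lpin1, a phosphatidate phosphatase gene (-2.03, 619, 140 and 617), and Hacd4 (-1.55). Other measured probe sets, 3 for Elovl7 and 1 each for Lpin1, Dgat2 and Tecr, were not compared, so these directions rest on 1 probe set each. With PTX against LPS 4 were higher and 4 lower (13.8% each, against 13.7% and 6.24% of all measured genes). The higher genes were Hacd4 (2.65), Elovl7 (2.25), Lpin1 (2.02) and Oxsm (1.13), which acts in mitochondrial fatty acid synthesis. The lower genes were Dgat2 (-2.62), Acsl5 (-1.14), Tecr (-1.06) and Hsd17b12 (-1.04), a reductase of the elongation cycle.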

How the data were processed

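RNA of 3 cultures was labelled from 3 µg of total RNA and hybridized to Affymetrix mouse arrays, per the labels' protocols. The deposited table holds the authors' intensity for each of 45101 probe sets and array. Its summarizing program, its background correction and any scaling were not given in the sources used here. Of the probe sets, 64 controls were left out. Of the others, 34945 had 1 symbol in the platform annotation, 932 several and 9160 none listed there. Where the gene identifier of a single symbol was found in RefSeq, the symbols did not differ. Those without a matching identifier were not compared. Log2 values were taken after adding 16, and no further scaling was applied. With 1 array per group no test was possible, so genes past 2-fold (1 log2 unit or more in either direction) were set beside the same count over all measured genes. Precision is limited by there being 3 arrays. Named genes were all members, listed pathway genes at least 2-fold apart in any comparison and up to 4 more per list. The members and lists were chosen with earlier results of these data known. Other settings were pseudocounts of 1 and 64, median, quantile and 75th percentile scaling, 2 other filters, averaged probe sets, no probe sets ending in _s_at, _x_at or _a_at (which can match several transcripts) and, added after the data were seen, probe set choice from the PBS and PTX arrays. The calculation was checked on simulated arrays, made from the mean intensities of these data with known changes put in. Those changes were larger than 2-fold, so calls near 2-fold were not checked. The work was done in Python 3.11.15 with pandas 2.3.3 and numpy 2.4.6.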

Additional observations from a re-analysis of the deposited data

How the results depend on the processing

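Relative to all measured genes, the median of the 30 genes stayed below 0 under each of the 9 planned settings in all 3 comparisons, between -0.63 and -0.43 in PTX against PBS and between -0.59 and -0.43 in PTX against LPS. Below, values are ordered as LPS minus PBS, PTX minus PBS, then PTX minus LPS. The median of the list was 0.15, -0.53 and -0.79 with median centring, 0.12, -0.52 and -0.77 with 75th percentile scaling, and -0.13, -0.61 and -0.57 with quantile normalization. It was -0.16, -0.47 and -0.42 with a pseudocount of 64, -0.15, -0.62 and -0.54 with the filter at the 75th percentile (26 genes), and -0.25, -0.52 and -0.34 without probe sets ending in _s_at, _x_at or _a_at (28 genes). A pseudocount of 1 gave -0.52 and -0.46 in the comparisons with PTX, and averaging probe sets gave -0.17 in LPS against PBS and -0.43 in PTX against PBS. The count of lower genes in PTX against PBS was 5 with a pseudocount of 64, against 1.70% of all measured genes. In LPS against PBS 4 were higher with median centring and with 75th percentile scaling and 1 without the multiple-match probe sets. In the same comparison 2 were lower with quantile normalization, 2 without the multiple-match probe sets and 0 with averaged probe sets. Of all measured genes 9.47%, 14.0% and 13.6% were lower under these settings. In PTX against LPS 11 were lower with median centring and with 75th percentile scaling, 8 with quantile normalization and 6 with a pseudocount of 1. The shares of all measured genes were 12.6%, 11.8%, 8.62% and 6.88% in that order. Fads2 turned from 0.61 to -1.20 in PTX against LPS with averaged probe sets, by including the probe set that differed after LPS. The causes of the other changes were not tested. No paired analysis was possible because each group holds 1 array, and no array could be left out for the same reason.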

Other observations

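Genes of oxysterol metabolism and of the liver X receptor, which senses oxysterols and drives sterol export, were read from a further list of 10, of which 8 were measured. In PTX against PBS 2 were at least 2-fold higher and 1 lower, against 3.04% and 2.37% of all measured genes. In LPS against PBS 1 was higher and 1 lower, against 6.50% and 13.0%. Cyp27a1, which makes 27-hydroxycholesterol, read 199 (PBS), 71.6 (LPS) and 722 (PTX), so that LPS and PTX lay on opposite sides of PBS (-1.30 and 1.78). Ch25h, which makes 25-hydroxycholesterol, went the other way at 167, 460 and 104 (1.38 and -0.60). Abca1, the main cholesterol exporter, read 2558, 4344 and 5520 (0.76 and 1.10), and Abcg1 differed by 0.14 and 0.32. Gpr183, the receptor for dihydroxylated oxysterols, was lower after PTX (318, 255 and 122, -1.28). Mylip, a liver X receptor target that degrades lipoprotein receptors, read 1032, 546 and 1524, a difference of 1.46 between PTX and LPS. Each of these values is from 1 probe set and 1 array per group and was not tested. Other measured probe sets, 2 for Abca1 and 1 each for Abcg1 and Gpr183, were not compared.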
